A study of Mus musculus with 77 samples.

Results

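A pair of mouse cell lines were compared at rest, before any hormone was added: cells labelled GRKO, for a knockout of the glucocorticoid receptor, that carry added mineralocorticoid receptor (GRKO MR, clone 2B12), and parental cells that carry it too (parental MR, clone 1G12). The members were the vehicle libraries of both lines, chosen by their labels: 3 of GRKO MR and 3 of parental MR, 6 of the 63 RNA libraries in the series. All 6 cultures had spent 24 h in charcoal-stripped serum, which is depleted of steroids, and then 2 h in vehicle. The study asked how the glucocorticoid receptor shapes transcription driven by aldosterone, and the resting difference between both lines is the state on which its hormone comparisons are built.

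The labels call the RNA samples adenocarcinoma cells, and name the mouse mammary line C127l for chromatin samples of the series. Each line is a single clone named in the labels, and the column names show different starting clones as well (D4 for GRKO, E8 for parental). Line, clone, deposited table and label therefore cannot be told apart in any difference given here. The labels do not say whether the 3 replicates of a line were separate cultures, so a p-value measures the spread between these libraries, which may be technical. That spread was smallest for genes of low level, so very small p-values there carry little extra weight.

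Glucocorticoid receptor (gene Nr3c1) and mineralocorticoid receptor (gene Nr3c2) are steroid-activated transcription factors of the same family. Both bind corticosterone, whereas aldosterone acts mainly through the mineralocorticoid receptor. Without hormone they sit mostly in the cytoplasm with Hsp90 chaperones, and with hormone they enter the nucleus and switch on shared targets such as Fkbp5, Tsc22d3, Per1 and Sgk1.

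Column headers gave totals of 31.8 M to 46.6 M reads for the 6 libraries. Parental MR vehicle 3 had the lowest total and stood apart in the 45S ribosomal RNA precursor Rn45s, at a deposited log2 of 21.2 against 17.8 to 18.6 in the other 5 libraries. Without that library 2556 genes differed, against 2513 with it. The tables of both lines had been normalized separately, so all 6 libraries were matched to a single distribution (quantile matching) over the 12773 genes that reached a floor of log2 3.3, or 10 on the linear scale, in at least 3 libraries, and every level below is a matched log2 value unless stated. The same vehicle libraries are also deposited in the corticosterone tables, where the difference between lines of a gene moved by a median of 0.02 log2 units and by over 0.5 in 161 genes.

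The cells had a mainly mesenchymal profile in both lines. Of 12 mesenchymal markers 11 reached a deposited log2 of 3.3 in each line, with Vim, an intermediate filament gene, at a deposited 17.5 in GRKO MR and 17.06 in parental MR. Of 12 epithelial markers 1 reached it in GRKO MR and 2 in parental MR, and the defining genes Epcam and Cldn3 were listed at 0 in both. Of 12 mammary markers 4 reached it in each line, with the highest at a deposited 11.7 in GRKO MR and 10.1 in parental MR. Of 8 leukocyte markers 1 reached it in GRKO MR and 0 in parental MR, and of 7 endothelial markers 1 reached it in each. RNA levels in bulk cultures do not separate fewer expressing cells from less RNA per cell.

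Nr3c1 RNA was not called lower in the line labelled GRKO. Its level was 12.87, 12.88 and 12.85 in GRKO MR and 13.02, 12.99 and 13.03 in parental MR, a difference of -0.14 ± 0.023 (SE) that did not pass the test. The libraries of both lines did not overlap, as held for 88.0% of all genes tested. How the gene was edited is not stated in the labels, and exon reads summed over a gene do not show whether a receptor protein is made, so this level checks the label in neither direction. Nr3c1 was at 13.3 in parental cells without added receptor, 12.8 in GRKO MR580C and 13.2 in parental MR580C, the other lines of the series, whose levels were placed on the same scale by rank.

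Nr3c2 was at 11.32, 11.20 and 11.08 in GRKO MR and at 10.93, 10.99 and 10.96 in parental MR. The difference of 0.24 ± 0.05 (SE) did not pass the test, although the libraries of both lines did not overlap. Parental cells without added receptor held 4.1, so both MR lines carried far more Nr3c2 RNA than the line they were compared with. Among the enzymes that set local steroid supply, Hsd11b1, which regenerates active glucocorticoid, was at 3.05 in each GRKO MR library and at 4.99, 5.01 and 4.97 in parental MR. It was lower in GRKO MR by at least 1.67 log2 units, counted against the floor of 3.3 (adjusted p = 3.35e-17, limma's treat test with Benjamini-Hochberg adjustment). H6pd, which supplies the cofactor of that enzyme, was also lower, at 10.3 against 11.2. Both genes lie where many genes were lower. The median difference was -0.53 over chromosome 1, which holds Hsd11b1, and -0.46 over the last 94 genes of chromosome 4, which include H6pd.

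Of the receptors' folding machinery 1 gene passed the test. Of 16 chaperone and co-chaperone genes 15 did not pass and 1 (6.25%, beside 19.7% of all genes tested) was lower. That gene was Fkbp4, an immunophilin that assists nuclear transport of the receptors, at 12.9 against 13.7. Fkbp4 lies in the last stretch of chromosome 6, from chr6:125460266, whose 120 genes had a median difference of -0.38. Its call was lost on the values as deposited, at -0.52. Of 14 coactivators and corepressors Ppargc1a was higher, at 8.75 against 8.18, and Ncoa2 was lower, at 11.3 against 11.9. Ncoa2 lies on chromosome 1 and its difference of -0.61 became -0.08 once the median of its chromosome was removed. The call of Ppargc1a was also lost there, at 0.51, under median centring, at 0.50, and without GRKO MR vehicle 3, parental MR vehicle 1 or parental MR vehicle 2, at 0.56, 0.57 and 0.56.

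Across the transcriptome 2513 of 12773 genes (19.7%) differed between both lines by more than 0.5 log2 units at an adjusted p under 0.05. Higher in GRKO MR were 1127 genes (8.82%) and lower were 1386 (10.9%). The median size of a difference was 0.24 log2 units, 90% of genes lay below 0.85, and 224 genes differed by 3 or more. Called, different by at least 1 log2 unit and without overlap of libraries were 450 genes higher (3.52%) and 510 lower (3.99%). On the values as deposited, whose median difference over all genes was 0.22 against 0.02 after matching, the split was 2099 higher and 956 lower. Replicate spread was smaller for genes of low level, with a median SD of 0.0049 below log2 6 and 0.028 at log2 12 or more, so the calls rest mainly on the size of a difference.

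Among the largest differences were genes that a single line held at a sizeable level. At log2 6 or more in every GRKO MR library and under 3.3 in every parental MR library were 31 genes, and the reverse held for 17. All 48 had been chosen for this pattern, so their size is a description.

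Dmd, which encodes dystrophin and lies on the X chromosome, was at 12.15, 12.21 and 12.19 in GRKO MR and at -1.39 in each parental MR library. Values this low have no meaningful order in these tables, so the difference is given as at least 8.86 log2 units above the floor. The tables list Dmd under different RefSeq transcripts in each line, as they do for Arhgap29 and Krt13 below.

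Rps6ka6, a kinase of the RSK family on the X chromosome, was at 10.82, 10.79 and 10.76 in GRKO MR and at or below -1.15 in parental MR. Cd36, a fatty acid transporter and scavenger receptor, was at 9.58, 9.64 and 9.60 in GRKO MR and under 0 in all 3 parental MR libraries. Arhgap29, a GTPase-activating protein, was at 11.67, 11.75 and 11.74 against 1.34 in each parental MR library. In all 3 genes the lines did not overlap, and GRKO MR was at least 7.47, 6.29 and 8.40 log2 units above the floor in turn.

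Of those 31 genes 20 were also under 3.3 in all 3 other lines of the series, Rps6ka6, Cd36, Arhgap29, Epha5 and Bnc2 among them. In GRKO MR580C, the other line labelled GRKO, 21 of the 31 were under 3.3 and 2 were at log2 6 or more. The first was Cdh5, the endothelial cadherin, at 6.83 in GRKO MR580C and 9.82 in GRKO MR, and the second was Il33, an alarmin cytokine, at 9.76 and 6.43. Cdh5 is among the endothelial markers, of which Kdr, Tie1 and Erg were at or under a deposited log2 of 0 in both lines. Tek, an endothelial receptor, went the other way, at a deposited 0.74 in GRKO MR and 3.68 in parental MR, and was called lower. All 31 genes were also called in the aldosterone libraries.

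The 17 genes under 3.3 in GRKO MR included Mstn, the muscle growth inhibitor myostatin, at -1.92 in each GRKO MR library and 6.33 in each parental MR library. Rnf128, a ubiquitin ligase on the X chromosome, was at 0.21 in each GRKO MR library and at 8.30, 8.28 and 8.29 in parental MR. Krt13, a keratin of stratified epithelium, was at 2.50 in each GRKO MR library and at 8.94, 8.99 and 8.95 in parental MR. These differences were at least 3.01, 4.97 and 5.64 log2 units from the floor.

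Of these 17 genes 10 reached 3.3 in all 3 other lines and 2 were under it in all 3. Krt13 was at 10.3 in parental cells without added receptor, 7.38 in GRKO MR580C and 8.81 in parental MR580C. Tpsab1, a mast cell tryptase, was at 1.69 in GRKO MR and 6.82 in parental MR, and reached 10.5, 7.58 and 12.4 in those lines. Mdp1, a phosphatase, was at 2.30 in GRKO MR and between 6.75 and 7.72 in the other 4 lines. Mstn and Tfcp2l1, an epithelial transcription factor, were under 3.3 in all 3 other lines.

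**Figure D1:**
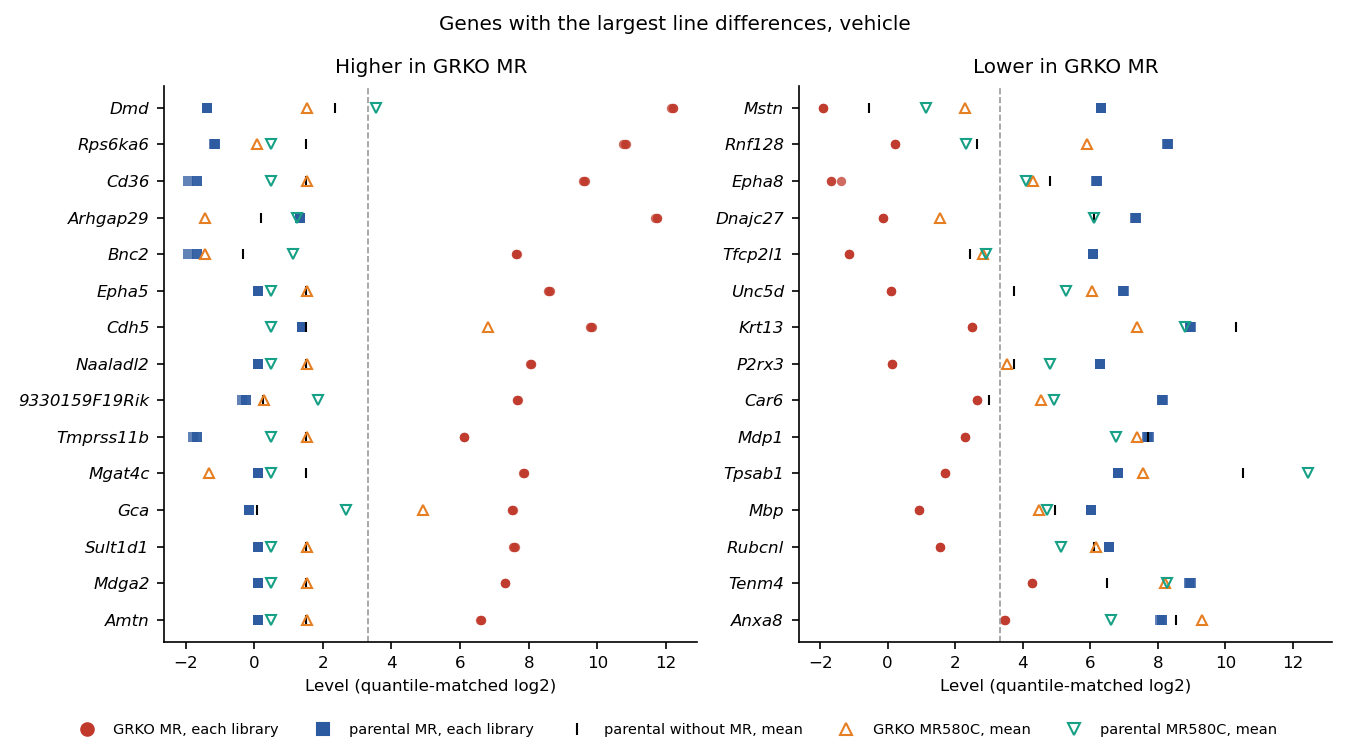
Matched log2 level of the 15 genes with the largest positive and the 15 with the largest negative difference, with a point for each vehicle library of GRKO MR and parental MR and the mean of each other line. The dashed line marks the filter at log2 3.3. All GRKO MR libraries lie apart from all parental MR libraries, as the choice of genes requires, and for Dmd the GRKO MR libraries sit above 12 and parental MR sits at -1.39.

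Several of those 31 genes were neighbours. Within a stretch of chromosome 5 (mm10, chr5:77086986-88556090) 11 of 20 consecutive genes tested were higher in GRKO MR and 0 were lower, with a median difference of 1.63 log2 units. Of the 11 higher genes 7 were under the floor in parental MR and entered the test only through GRKO MR, and over the 13 genes at the floor or above in both lines the median was 0.14, with 4 higher. The stretch holds Epha5, a receptor for ephrins, at 8.60 against 0.11, and the transmembrane proteases Tmprss11f, at 7.73 against 4.30, and Tmprss11b, at 6.12 against -1.71. It also holds the sulfotransferases Sult1b1, at 4.65 against 0.98, and Sult1d1, at 7.58 against 0.11, and Amtn, an enamel protein gene, at 6.60 against 0.11.

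The casein genes of that stretch were higher too. Csn3, kappa-casein, was at 11.56, 11.67 and 11.62 in GRKO MR and at 10.20, 10.12 and 10.18 in parental MR, a difference of 1.45 ± 0.033 (SE, adjusted p = 1.18e-09, limma's treat test). Csn1s1, another milk casein, was at 7.65 against 5.83. Both were low in parental cells without added receptor, Csn3 at 3.49 and Csn1s1 at 1.51. Among the neighbours in the same stretch Cenpc1, Polr2b, Ythdc1 and Utp3 differed by 0.03, 0.08, 0.14 and -0.11 and did not pass the test.

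Interferon-stimulated genes, which cells switch on after type I interferon, were the list whose median lay farthest from 0 among those with at least 9 members tested. Of 34 listed genes 24 were tested, of which 16 were higher in GRKO MR, 0 were lower and 8 did not pass the test. Their median difference was 1.12 log2 units, beside 0.02 for all genes tested. Of the 24 genes 6 passed the filter through GRKO MR alone, and of the 18 at 3.3 or more in both lines 10 were higher, and 0 were lower, where 16.5% of all genes so expressed were called, 7.19% higher and 9.27% lower. Calls were more frequent among genes of low level, so the list was also set beside genes of its own level. Below a mean of log2 6, 10 of 11 members were higher, beside 24.4% of all genes there. From log2 6 to 9 it was 4 of 7, beside 11.8%, and from log2 9 to 12 it was 2 of 6, beside 4.46%. The counts by level include the 6 members that passed the filter through GRKO MR alone, which could hardly lie lower. Removing chromosome medians left the median of the list, with those 6, at 1.06. Over the 18 members at 3.3 or more in both lines the median was 0.91, beside 0.02 for all genes so expressed.

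Ifit1, which binds foreign RNA, was at 6.54, 6.55 and 6.55 in GRKO MR and at 3.24, 3.22 and 3.24 in parental MR. Rtp4, an interferon-induced transmembrane transporter protein, was at 6.83, 6.84 and 6.84 against 4.09, 4.10 and 4.09 (difference 2.75 ± 0.0069, SE, adjusted p = 7.73e-19, limma's treat test). Igtp, an immunity-related GTPase, was at 6.12, 6.12 and 6.11 against 3.71, 3.70 and 3.71. In these 3 genes the lines were separated by more than 2 log2 units. The libraries of a line differed by hundredths, but spread was that small among low-level genes in general. Below log2 6 the median SD was 0.0049, so the small spread adds no weight to these genes.

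More abundant members moved the same way by smaller steps. Ddx58, which encodes the RNA sensor RIG-I, was at 11.3 against 10.4, Irgm1, another immunity-related GTPase, at 10.5 against 9.34, and Isg15, a ubiquitin-like modifier, at 7.43 against 5.76. The signal transducers Stat2 and Irf9 did not pass the test, at 8.31 against 8.29 and at 6.89 against 6.84. Irf7, an interferon-induced regulator of the same pathway, was higher, at 5.88 against 4.79.

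All 16 higher members had their highest level in GRKO MR among the 5 lines, as did 815 of all 1127 genes called higher (72.3%). Ifit1 was at 2.81 in parental cells without added receptor, 2.74 in GRKO MR580C and 3.24 in parental MR580C, and Isg15 was at 4.97, 4.25 and 4.38. Of the leukocyte markers Csf1r was higher in GRKO MR, at a deposited log2 of 5.93 against 1.74, while Cd3e, Tyrobp and Laptm5 were under 0.5 in both lines. Neither the presence of other cells nor exposure to interferon was tested.

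The promoters of these genes are shown because the members moved together. Windows of 300 bases (250 before to 50 after the start, RefSeq, GRCm38.p6) were matched for 19 of the 24 genes tested and searched on both strands for GAAA, any 2 bases and GAAA again, the core of the interferon-stimulated response element to which IRF proteins bind. It was present in 12 of 19 windows, beside 2.97% of 9323 windows of all genes tested. The element belongs to the response that defines this list, so that share describes the list and not these cells. Of the 13 windows from genes higher in GRKO MR 9 held it, and of the 6 from genes that did not pass 3 did. That contrast rests on few windows and was not tested. Matches are in capitals, and overlapping matches appear as a single run.
Ifit1, chr19:34640639-34640938, plus strand: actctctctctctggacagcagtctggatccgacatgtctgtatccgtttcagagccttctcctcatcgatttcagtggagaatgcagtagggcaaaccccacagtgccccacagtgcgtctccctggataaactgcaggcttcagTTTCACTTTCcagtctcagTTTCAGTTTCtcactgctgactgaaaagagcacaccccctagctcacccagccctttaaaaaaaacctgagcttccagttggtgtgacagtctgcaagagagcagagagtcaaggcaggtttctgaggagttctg
Ifit3, chr19:34583279-34583578, plus strand: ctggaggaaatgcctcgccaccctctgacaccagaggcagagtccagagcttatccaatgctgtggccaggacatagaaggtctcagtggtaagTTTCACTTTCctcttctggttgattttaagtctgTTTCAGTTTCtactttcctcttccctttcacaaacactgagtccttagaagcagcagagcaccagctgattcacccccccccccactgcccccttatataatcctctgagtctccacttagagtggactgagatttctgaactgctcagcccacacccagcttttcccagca
Isg15, chr4:156200769-156201068, minus strand: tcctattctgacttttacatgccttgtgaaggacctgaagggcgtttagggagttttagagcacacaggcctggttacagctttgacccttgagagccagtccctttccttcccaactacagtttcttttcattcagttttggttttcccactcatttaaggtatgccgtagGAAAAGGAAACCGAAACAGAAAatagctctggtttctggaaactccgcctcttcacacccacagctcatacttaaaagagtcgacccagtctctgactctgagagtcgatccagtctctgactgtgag
Igtp, chr11:58199306-58199605, plus strand: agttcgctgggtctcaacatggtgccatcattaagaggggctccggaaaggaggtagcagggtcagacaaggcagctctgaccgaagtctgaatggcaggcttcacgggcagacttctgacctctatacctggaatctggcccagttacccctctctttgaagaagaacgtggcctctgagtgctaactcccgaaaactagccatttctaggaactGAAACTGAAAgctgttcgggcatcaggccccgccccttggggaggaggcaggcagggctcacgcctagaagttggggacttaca

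**Figure D2:**
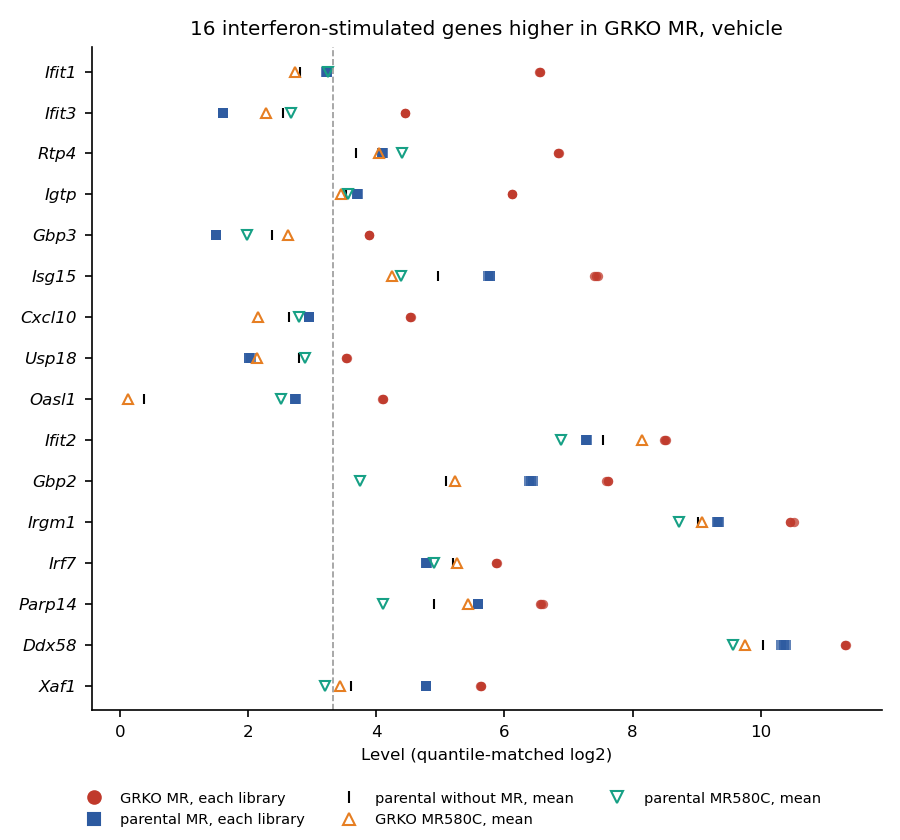
Matched log2 level of the 16 interferon-stimulated genes called higher in GRKO MR, ordered by the difference, with a point for each vehicle library of GRKO MR and parental MR and the mean of each other line. The dashed line marks the filter at log2 3.3. For all 16 genes GRKO MR lies to the right of every other line, with Ifit1 at 6.55 in GRKO MR and 3.23 in parental MR.

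The CpG content of promoters was also set beside the differences. The 128 windows of genes higher in GRKO MR by at least 2 log2 units held a median of 5 CpG dinucleotides and the 116 of genes lower by at least 2 held 7.5, beside 21 for all 9323 windows. Windows of the 1218 genes with a mean below log2 6 held a median of 9. The genes at log2 6 or more in GRKO MR and under the floor in parental MR held a median of 3 over 25 windows, and the reverse class held 13 over 11 windows. These values are a description without a test.

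Genes known to respond to corticosteroids were split. Of 39 listed genes 31 were tested, of which 7 were higher, 5 were lower and 19 did not pass, with a median difference of 0.14 log2 units. Called members made up 38.7% of those tested, beside 19.7% of all genes. Sgk1, the serum and glucocorticoid regulated kinase, was at 13.10, 13.16 and 13.08 in GRKO MR and at 12.41, 12.40 and 12.42 in parental MR. It was higher by 0.71 ± 0.027 (SE, adjusted p = 8.16e-05, limma's treat test), and every GRKO MR library lay above every parental MR library.

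Also higher were Ampd3, an AMP deaminase, at 11.3 against 9.87 and Plin4, a lipid droplet protein, at 13.0 against 12.1. Lower were Ddit4, an inhibitor of mTORC1, at 11.6 against 12.9, Errfi1, an inhibitor of EGF receptor signalling, at 9.37 against 10.7, and Cebpb, a transcription factor, at 9.19 against 9.88.

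Fkbp5, Tsc22d3 and Per1, well-known targets of these receptors, did not pass the test in vehicle. Fkbp5, a co-chaperone that lowers receptor affinity for hormone, was at 11.38, 11.44 and 11.45 in GRKO MR and at 11.78, 11.74 and 11.70 in parental MR, a difference of -0.32 ± 0.028 (SE). Tsc22d3, which encodes the anti-inflammatory protein GILZ, was at 10.58, 10.65 and 10.61 against 10.89, 10.88 and 10.89. Per1, a clock repressor, was at 8.48, 8.48 and 8.52 against 8.28, 8.30 and 8.39. The groups did not overlap for any of the 3, and all 3 differences were under the 0.5 log2 units tested.

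In the libraries taken after 2 h of 10 nM aldosterone, 3 of GRKO MR and 2 of parental MR, Tsc22d3 was lower in GRKO MR by 1.05 and passed the test, and Fkbp5 differed by -0.51. The difference between the vehicle and aldosterone values was not tested.

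A list taken from the authors' deposited table was split in the same way. By that table's log2 fold change of at least 1 in either direction and adjusted p under 0.05, corticosterone raised 86 of the genes tested here in parental MR580C cells and lowered 19. In vehicle 24 of the 86 were higher in GRKO MR (27.9%, beside 8.82% of all genes) and 20 were lower (23.3%, beside 10.9%), with a median difference of -0.0047 log2 units, and 42 of the 86 differences were above 0. Of the 19 lowered genes 7 were higher and 5 were lower, with a median of -0.038. These shares were not set beside genes of the same level. Calls made up 51.0% of all genes with a mean below log2 6 and 11.2% from log2 9 to 12. The 86 genes hold low-level members such as Klf15, Map7d2 and Gpr17, so the larger shares are not read as a trait of corticosterone-responsive genes. Members of the first group that were higher included Adm, which encodes the vasodilator adrenomedullin, at 10.1 against 8.26, and F3, tissue factor, at 8.74 against 6.74. Lower members included Klf15, a metabolic transcription factor, at 1.60 against 4.89, and Per2, a clock repressor on chromosome 1, at 8.22 against 9.24. The call of Per2 was lost with chromosome medians removed, at a difference of -0.48.

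**Figure D3:**
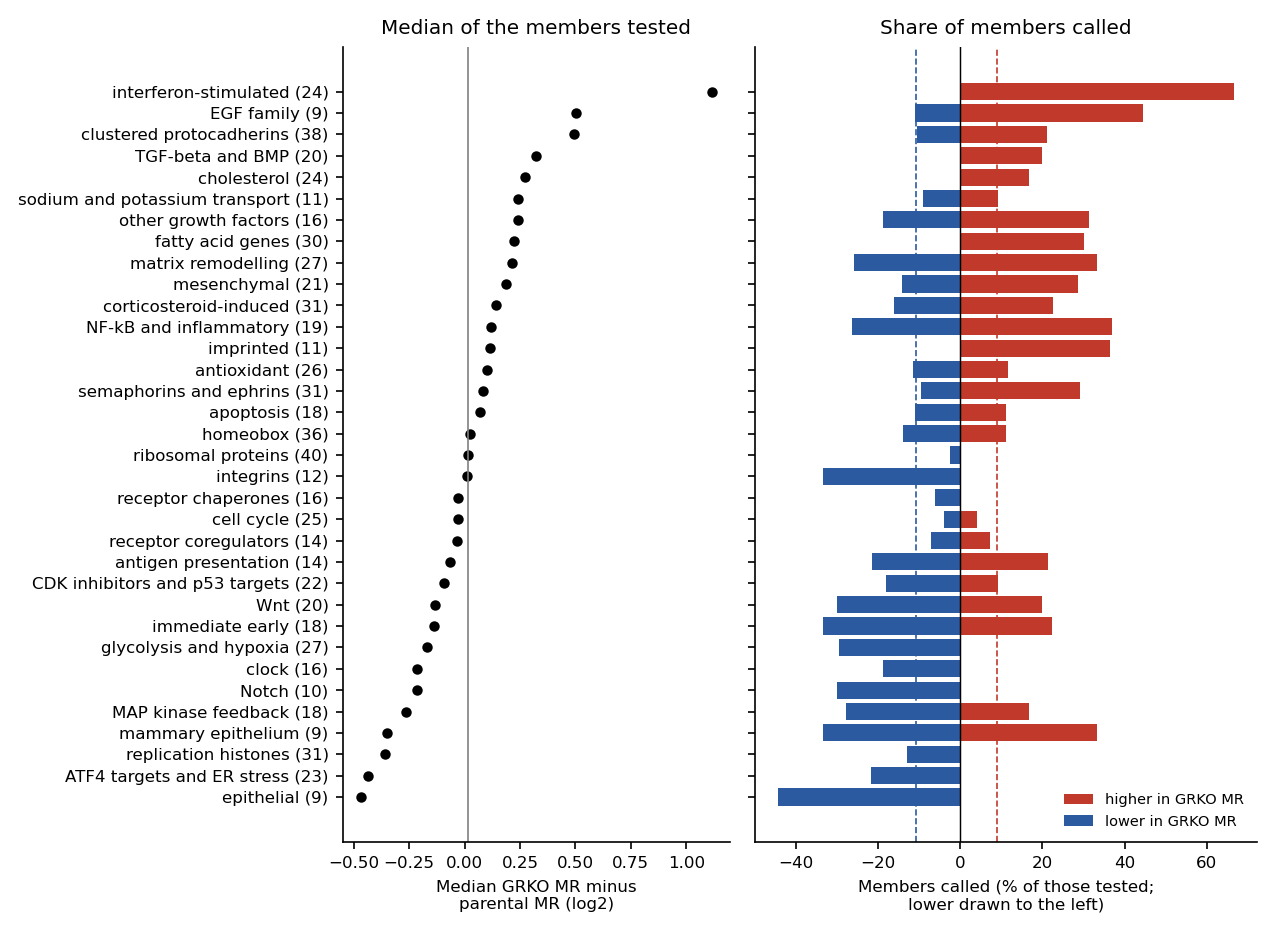
Gene lists with at least 9 members tested: the median difference of the members in log2 units (left) and the percentage of members called higher or lower in GRKO MR (right), with the number tested in parentheses. The grey line marks the median of all genes, 0.02, and the dashed lines mark the shares of all genes called, 8.82% higher and 10.9% lower. The interferon-stimulated list stands at a median of 1.12 with 16 of 24 members higher.

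The called members of stress and metabolic lists lay on a single side. Of 23 ATF4 targets and unfolded protein response genes 5 were lower in GRKO MR and 0 were higher, with a median of -0.44. Called members made up 21.7% of that list, near the 19.7% of all genes tested. Of the 5 lower members 3 lay below all 3 other lines, as did 936 of all 1386 genes called lower. In parental MR against parental cells without added receptor, a comparison that shares the parental MR libraries, 7 members were higher in parental MR and 0 were lower, with a median of 0.48. Trib3, a pseudokinase induced by ATF4, was at 11.24, 11.37 and 11.46 in GRKO MR and at 13.27, 13.26 and 13.13 in parental MR. Ddit3, which encodes the stress factor CHOP, was at 10.08, 10.18 and 10.17 against 11.74, 11.77 and 11.69. Every GRKO MR library was below every parental MR library for both genes.

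Atf4 itself was lower, at 14.27 against 14.89, and lies on chromosome 15, whose genes had a median difference of -0.34. Without the chromosome medians the list stood at -0.40. Members acting on protein folding in the endoplasmic reticulum did not pass the test, among them Hspa5, at 15.39 against 15.51, and Hsp90b1, at 15.60 against 15.78. Of 27 genes of glycolysis and the hypoxia response 8 were lower and 0 were higher (29.6% called, beside 19.7% of all genes), with a median of -0.17. Lower members included Pdk1, which restrains pyruvate oxidation, at 6.93 against 8.62, and Car9, a hypoxia-induced carbonic anhydrase, at 6.70 against 7.64.

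Called lipid genes lay on the other side. Of 30 genes of fatty acid synthesis, storage and use 9 were higher in GRKO MR and 0 were lower, with a median of 0.22. That was 30% called, beside 19.7% of all genes tested. Besides Cd36 the higher members included Fabp4, a fatty acid binding protein, at 7.77 against 5.56, and Cpt1a, which carries fatty acids into mitochondria, at 11.8 against 10.8. Pparg, a regulator of fat storage, was at 8.49 against 7.54. Of 24 genes of cholesterol synthesis and uptake 4 were higher and 0 were lower, with a median of 0.27. The called share was 16.7%, below the 19.7% of all genes tested. Higher members included Hmgcs1, an enzyme of the mevalonate pathway, at 15.2 against 14.5, and Insig1, which restrains sterol synthesis, at 13.95 against 13.33. The call of Insig1 was lost with chromosome medians removed, at 0.55, and without GRKO MR vehicle 2, GRKO MR vehicle 3 or parental MR vehicle 2, at 0.59, 0.62 and 0.59.

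Signalling and matrix lists differed in their direction. Matrix remodelling genes had 9 higher and 7 lower of 27, Wnt genes 4 and 6 of 20, MAP kinase feedback genes 3 and 5 of 18, and EGF family genes 4 and 1 of 9. Integrins had 0 higher and 4 lower of 12, and Notch genes 0 and 3 of 10. In turn 59.3%, 50%, 44.4%, 55.6%, 33.3% and 30% of these lists were called, beside 19.7% of all genes tested. Over all genes 8.82% were higher and 10.9% were lower. Higher in GRKO MR were Axl, a receptor tyrosine kinase, at 16.3 against 15.1, Nrg1, an EGF family ligand, at 10.3 against 9.17, and Tgfbr2, a TGF-beta receptor, at 12.7 against 11.7. Axl is listed under different RefSeq transcripts in both tables. Cxcl12, a chemokine, was at 9.40, 9.39 and 9.37 in GRKO MR and at 4.13, 4.14 and 4.15 in parental MR, and it was also high in GRKO MR580C at 9.56 and in parental MR580C at 8.07. Adamts1, a matrix protease, was at 13.2 against 10.8, and Plau, the urokinase plasminogen activator, at 10.25 against 8.39.

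Lower were Sfrp2, a secreted Wnt inhibitor, at 6.48 against 10.2, Wnt7b, at 4.35 in parental MR and under the floor in GRKO MR, and Etv5, a transcription factor downstream of MAP kinase signalling, at 7.18 against 9.26. Spp1, which encodes osteopontin, was at 14.95 against 16.50. Of 9 epithelial genes tested 4 were lower and 0 were higher, with Krt14, a basal keratin, at 6.17, 6.15 and 6.14 in GRKO MR and at 9.51, 9.70 and 9.53 in parental MR. Of 20 TGF-beta and BMP genes 4 were higher and 0 were lower, with a median of 0.32. Called members made up 44.4% of the epithelial genes and 20% of the TGF-beta and BMP genes. The latter share was near the 19.7% of all genes tested.

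Ribosomal protein, cell cycle and histone lists had fewer called members, at 2.5%, 8% and 12.9%, than all genes tested, at 19.7%. Of 40 ribosomal protein genes 1 was lower, of 25 cell cycle genes 1 was higher (Ccne1, at 11.0 against 10.3) and 1 was lower (Ccnd1, at 15.4 against 15.9). The call of Ccnd1, with a difference of -0.57, was lost under the replicate block, with a filter at log2 6, on floored values, on values as deposited (-0.43) and without any of GRKO MR vehicle 1, 2 or 3 or parental MR vehicle 1 (-0.56 to -0.58). Of 31 replication-dependent histone genes 4 were lower, with a median of -0.36. Clustered protocadherins had a larger share called, at 31.6%. Of 38 tested 8 were higher and 4 were lower, with a median of 0.49, but these genes share exons and their counts are uncertain.

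Differences were also shared along whole chromosomes. On chromosome 1 the median difference over 746 genes was -0.53 log2 units, 672 genes (90.1%) lay below 0, and 334 were called lower against 22 higher. On chromosome 15 the median over 512 genes was -0.34, with 119 lower and 17 higher. The medians of the other chromosomes lay between -0.072 on chromosome 6 and 0.092 on chromosome 18, except for chromosome 14. Chromosomes 1, 14 and 15 held 13.1% of the genes tested and 592 of the 1386 lower calls (42.7%).

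Chromosome 14 was split. Up to chr14:36968764 (mm10) its 127 genes had a median difference of 0.49, with 47 higher and 7 lower. From chr14:37102140 onward its 284 genes had a median of -0.54, with 8 higher and 132 lower. The break was placed after seeing the data, at the gene that left the smallest summed deviation from a median on either side. Plau lies in the first stretch and was higher, whereas Rubcnl, an autophagy gene at 1.55 against 6.56, and Lcp1, an actin-bundling protein gene at 3.87 against 7.10, lie in the second. Mdp1 lies in the second stretch too.

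Smaller steps of the same kind appeared on chromosomes 4 and 6. The last 94 genes of chromosome 4, from chr4:149328416, had a median of -0.46 against 0.11 for the 731 before them. The last 120 genes of chromosome 6, from chr6:125460266, had a median of -0.38 against -0.033 before. On chromosome 1 the lowest window (chr1:87476829-88277579) had a median of -1.57 with 19 of 20 genes lower, but 8 of these are Ugt1a transcripts that share exons and cannot be counted apart. Beyond them it holds Ngef, an exchange factor of the ephexin family, at 2.06 against 4.70.

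The other lines placed these shifts. Against parental cells without added receptor the median of chromosome 1 was -0.54 in GRKO MR, -0.0068 in parental MR, -0.46 in GRKO MR580C and -0.42 in parental MR580C. The chromosome 1 difference between both MR lines was therefore shared by a parental line. For chromosome 15 the values were -0.35, 0.040, -0.011 and -0.066, so GRKO MR alone stood apart. On chromosome 14 the first stretch stood at 0.50, 0.0090, -0.0042 and -0.32 in the same order, and the second at -0.59, -0.020, -0.010 and -0.31. Parental MR580C thus also stood lower in the second stretch, and it stood lower in the first, where GRKO MR stood higher.

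Chromosomes 4 and 12 moved together in both MR lines, at 0.38 and 0.33 for chromosome 4 and at -0.27 and -0.32 for chromosome 12. Taken as whole chromosomes they so did not differ much between the MR lines. The last 94 genes of chromosome 4 were an exception, at -0.0097 in GRKO MR and 0.47 in parental MR. There the MR580C lines stood at -0.077 (GRKO) and 0.060 (parental). The last 120 genes of chromosome 6 stood at -0.15 in GRKO MR, 0.20 in parental MR, -0.17 in GRKO MR580C and -0.16 in parental MR580C. GRKO MR580C and parental MR580C stood at -0.027 and 0.015 for chromosome 4 and at -0.34 and -0.12 for chromosome 12. On chromosome 12 every other line thus stood below parental cells without added receptor. These comparisons share the cells without added receptor and are set side by side only. The number of copies of each chromosome was not measured here. With every chromosome's median removed the calls were 1137 higher and 1076 lower.

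**Figure D4:**
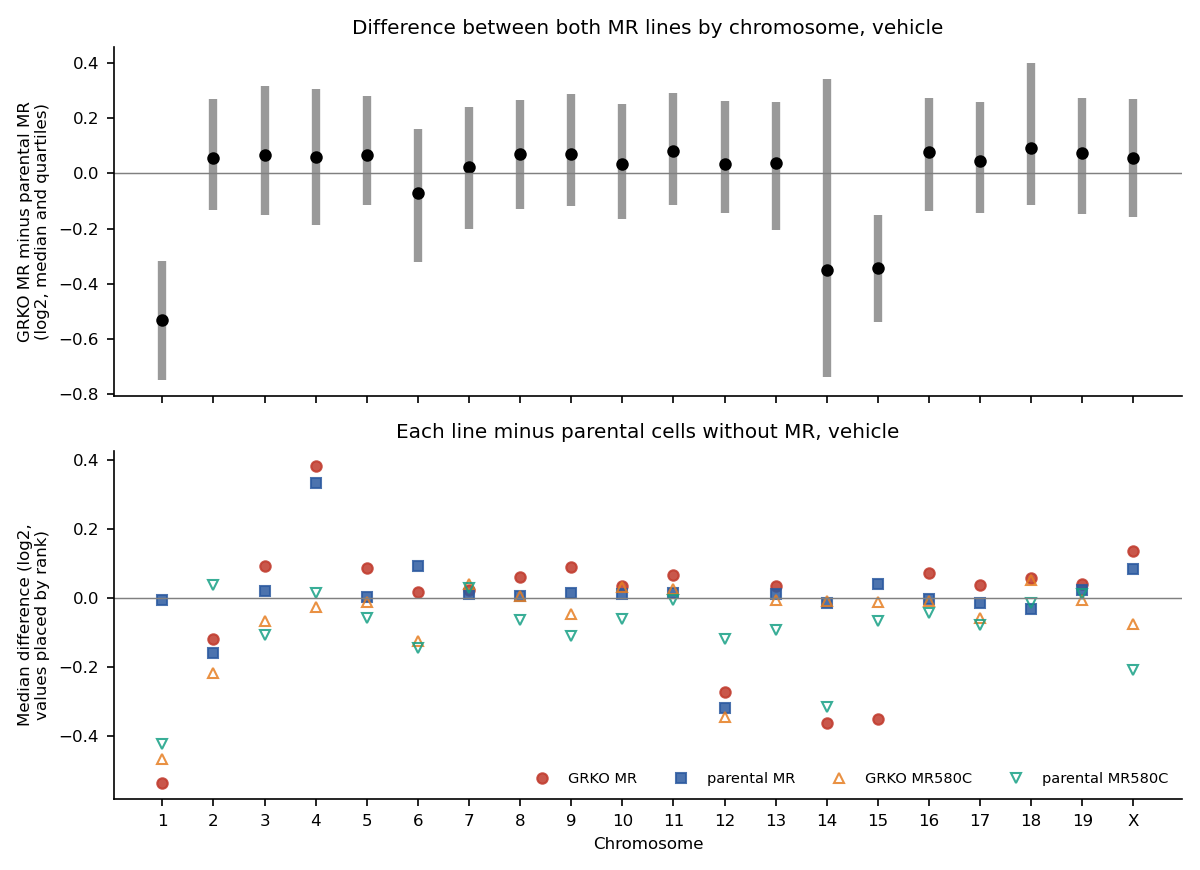
Top, the median (point) and quartiles (bar) of the GRKO MR minus parental MR difference in log2 units over the genes of each chromosome. Bottom, the median difference of each of the 4 other lines from parental cells without added receptor. Chromosome 1 sits at -0.53 in the top panel, and in the bottom panel parental MR sits at -0.0068 there while the other 3 lines lie between -0.42 and -0.54.

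**Figure D5:**
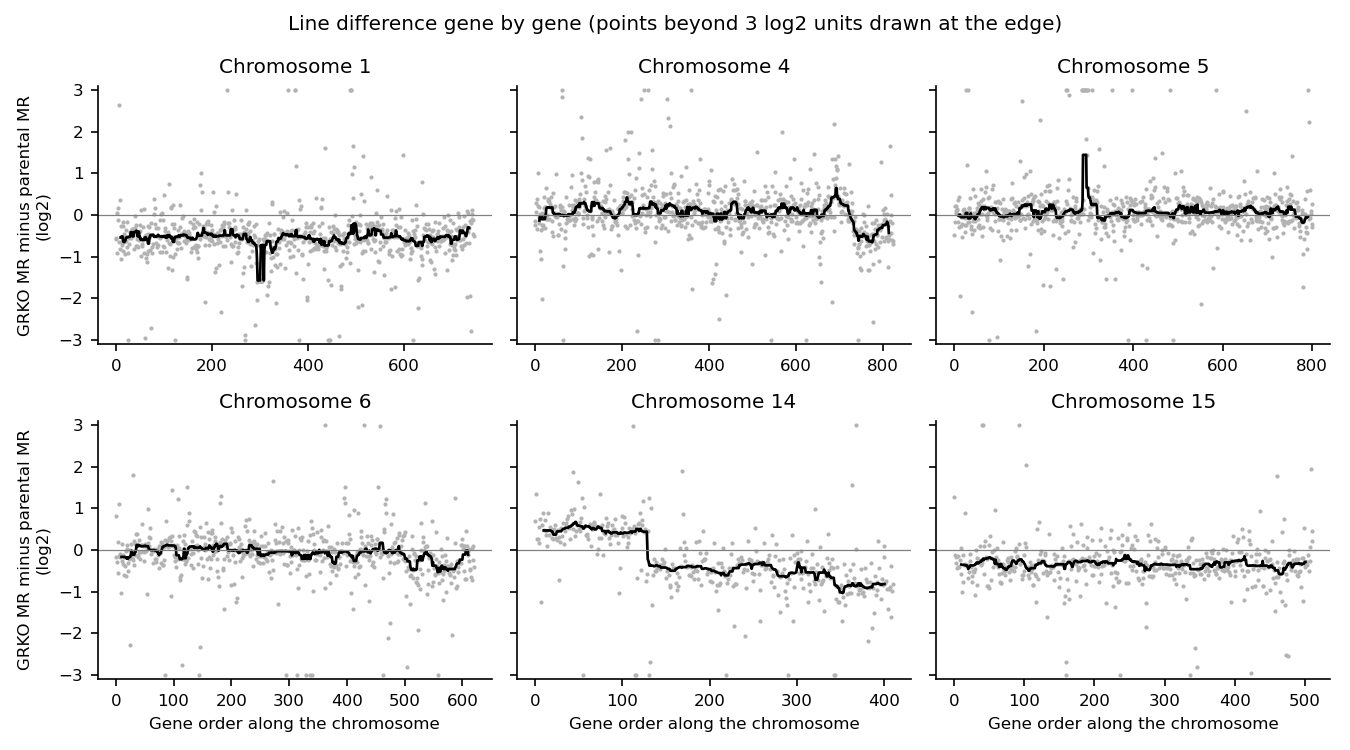
GRKO MR minus parental MR difference in log2 units for each gene (grey points, drawn at the edge beyond 3 log2 units) in its order along 6 chromosomes, with a running median of 21 genes (line). The line lies near -0.53 along chromosome 1 and near -0.34 along chromosome 15, steps from about 0.49 to -0.54 on chromosome 14, and rises above 1 at a single stretch of chromosome 5.

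The line difference was also seen in the libraries taken after aldosterone, where 2561 of 12774 genes (20%) were called, 1156 higher (9.05%) and 1405 lower (11.0%). Of the 1127 genes higher in vehicle 1126 were tested there, and 1126 differed in the same direction and 1095 passed the test. Of the 1386 lower genes 1385 were tested, 1385 differed in the same direction and 1337 passed. These libraries come from the same clones and tables, so they are not an independent check of the label.

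A pair of parental lines differed about as widely. Parental MR against parental cells without added receptor gave 2660 of 13171 genes called (20.2%), 1187 higher (9.01%) and 1473 lower (11.2%) in parental MR, with a median size of 0.24 log2 units and 134 genes at 3 or more. That comparison shares the parental MR libraries, and it also differs in added receptor and clone. Interferon-stimulated genes gave 6 higher and 0 lower members there, with a median of 0.20.

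The other pair of lines with and without the GRKO label gave no common direction. In MR580C cells, compared by rank within each library, 562 of the 1125 genes higher in GRKO MR with values there were also higher in GRKO MR580C than in parental MR580C (49.96%), and 663 of 1384 lower genes were also lower (47.9%). Over all genes the share with the same direction was 47.5%. What MR580C denotes is not given in the labels, and those tables were normalized separately. Their log2 transforms also differ, with variance-stabilized values for parental MR580C and values like a regularized log for GRKO MR580C. How far that moves ranks was not tested.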

How the data were processed

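Per the labels' protocols, total RNA was made into stranded total RNA libraries and sequenced on a NovaSeq. Per the file headers, HOMER counted exon reads per RefSeq gene of mm10 and kept 1 transcript per gene, and the authors deposited 1 table per comparison with log2 values per library. The headers of both tables do not name the log2 transform, and the values have the small spread of a regularized log. The submitters' processing notes name STAR 2.7.0f, HOMER 4.10.4 and cutadapt 1.18. The log2 fold changes and adjusted p-values used for the corticosterone list are the authors' own, from their deposited table.

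All 24940 genes of both tables matched by symbol, 23309 of them with the same RefSeq identifier. Genes at log2 3.3 or more in at least 3 of 6 libraries were quantile-matched over all 6 and tested with limma 3.58.1 (R 4.3.3, trend, treat against a difference of 0.5, Benjamini-Hochberg adjustment over all genes, adjusted p under 0.05). Other lines were placed on the matched scale by rank. The floor for genes under the filter was 3.3. The test was also run on simulated data. Genes were named by a rule: 6 receptor targets and receptors, the 15 largest called differences in each direction at log2 6 or more, up to 4 called members of each list in each direction, and 2 genes in each of 6 windows of 20 genes. Genes outside it (in the chromosome 5 stretch, the lists and the classes present in 1 line) were chosen after their values were seen. Members and lists were chosen with earlier results of these data known. Raw read counts per gene were not used here. Some genes of the lists are counted there but not reported by name here.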

Additional observations from a re-analysis of the deposited data

Results flagged for a closer look

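Some named genes differed one way between GRKO MR and parental MR and the other way between GRKO MR580C and parental MR580C, with no overlap of libraries in either pair. The comparison used percentile ranks within each library, in percentile points, and the difference between the pairs was not tested. The values of GRKO MR580C and parental MR580C also came from different log2 transforms. Nr3c2, the mineralocorticoid receptor, was 4.59 points higher in GRKO MR and -3.2 points from its parental line in GRKO MR580C. Tsc22d3 stood at -5.29 points in the MR pair and 14.4 in the MR580C pair, and Fkbp5 at -5.34 and 2.87.

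Genes with large differences in the MR pair were also among them. For Dmd, the dystrophin gene, the values were 86.5 points in the MR pair and -2.99 in the MR580C pair, but both MR580C lines were near or under the floor, at 1.54 and 3.56, where levels have no meaningful order, so no direction is read from the second. Anxa8, an annexin, stood at -23 and 20.3, and Rnf128 at -27.2 and 12.7. Unc5d, a netrin receptor, stood at -18.9 and 3.24, Mdp1 at -22.2 and 3.06, and Rubcnl at -16.5 and 4.46.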

How the results depend on the processing

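The 2513 calls in vehicle (1127 higher, 1386 lower) stayed within 1.5 times under median centring, the corticosterone tables, percentile ranks, the replicate block and all 6 fits that left out 1 library (2411 to 2556 in all, 1083 to 1149 higher, 1328 to 1407 lower). None of the 210 called genes that were named changed sign under any setting run. The size of the difference tested moved the counts most. At 1 log2 unit 887 genes were called in vehicle (414 higher, 473 lower), 898 in aldosterone (421 and 477) and 1024 for parental MR against parental cells without added receptor (465 and 559), and at 0 they were 11148 (5826 and 5322), 11275 (5899 and 5376) and 11528 (5780 and 5748). Without a filter they were 6855 (3363 and 3492), 6907 (3381 and 3526) and 7128 (3343 and 3785), over 19129 genes in vehicle. On the values as deposited 2099 were higher in vehicle and 2120 in aldosterone, and in the parental pair 4647 differed (453 higher, 4194 lower). With a filter at log2 6, 740 were higher. Leaving out 1 library gave 2450 to 2523 calls in aldosterone (1105 to 1132 higher, 1344 to 1396 lower) and 2561 to 2680 in the parental pair (1146 to 1194 higher, 1415 to 1486 lower). In aldosterone this leaves 1 parental MR library, which is assumed to vary like the others. Replicate numbers did not pair the libraries (correlations of deviations -0.35, 0.030 and 0.24), and the fit with the replicate block gave 1111 higher and 1377 lower. Flooring values at log2 3.3 and removing chromosome medians, both chosen after seeing the data, gave 1031 and 1286, and 1137 and 1076, and ended the call of 13 and 14 named genes.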
